A study of Mus musculus with 21 samples.

Results

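Gdf9 and Bmp15 are a pair of genes for growth factors that the oocyte secretes, and they were followed by name through sequenced RNA libraries from the oocytes and granulosa cells of mice. They are 2 of the 55335 gene identifiers in each library, and each has 1 row per library. They were chosen by name, with earlier results of these data known. Libraries came from 5 groups of female ICR mice. Young mice were 6 to 8 weeks old, Aged mice were 18 months old, and neither received cells. Aged + Unsorted, Aged + LRP1high and Aged + LRP1low mice were also 18 months old and carried human umbilical cord mesenchymal stem cells (UC-MSCs) under the ovarian capsule, collected 3 weeks after transplantation. The transplanted cells were either unsorted or sorted for a high or a low level of LRP1, a surface receptor of the low-density lipoprotein receptor family. There were 12 oocyte libraries (3 Young, 2 Aged, 2 Aged + Unsorted, 3 Aged + LRP1high and 2 Aged + LRP1low) and 9 granulosa cell libraries (1, 2, 1, 3 and 2). Oocytes were freed of the zona pellucida with pronase, and granulosa cells were taken from cumulus-oocyte complexes with hyaluronidase. The labels number the libraries as biological replicates, and the animals or cells behind each library are not given in the sources used here, so p-values measure only the spread between these libraries.

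GDF9 and BMP15 belong to the TGF-β family. Both are made as propeptides that proprotein convertases such as furin cleave, and the mature factors act as dimers on the granulosa cells around the oocyte. BMPR2 is their type II receptor, and the type I receptors that pass the signal on to SMAD proteins include TGFBR1 for GDF9 and BMPR1B for BMP15. In the mouse ovary they are known for follicle growth, for cumulus expansion and for the support of glycolysis and cholesterol synthesis in cumulus cells. NOBOX, a homeobox protein, and FIGLA, a helix-loop-helix protein that binds E-boxes, are transcription factors of the growing oocyte.

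Gdf9 (ENSMUSG00000018238.6) lies on the plus strand of chromosome 11, from 53431023 to 53437904, in the GRCm38 coordinates that the values carry. It has 3 annotated transcripts with 2031 exonic bases, and the transcript Gdf9-201 has 2 exons, of 504 bases (53433299 to 53433802) and 1289 bases (53436616 to 53437904). Uqcrq, a gene of respiratory chain complex III on the opposite strand, lies 192 bases before it and does not overlap it. Bmp15 (ENSMUSG00000023279.7) lies on the minus strand of chromosome X, from 6314107 to 6320721, with a single transcript of 3060 exonic bases in 2 exons of 680 and 2380 bases. Its nearest annotated neighbour, Shroom4, is 79133 bases away. FPKM, the unit used here, scales the fragments of a gene by its length and by the total of the library, so the levels of both genes can be compared per length.

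The 250 bases before the Bmp15 start site are shown because the transcription factors of the growing oocyte are followed below with their levels. They span chrX:6320725-6320974 on the minus strand (GRCm38.p6, RefSeq), and are printed 5′ to 3′ with motif matches in capitals.
Bmp15: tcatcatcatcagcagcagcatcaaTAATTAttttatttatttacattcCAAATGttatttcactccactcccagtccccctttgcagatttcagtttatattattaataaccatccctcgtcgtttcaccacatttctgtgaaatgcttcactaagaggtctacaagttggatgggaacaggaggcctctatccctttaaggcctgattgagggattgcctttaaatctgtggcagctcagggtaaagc
The capitals at positions -225 to -220 from the start site are a homeobox core, searched as TAATTG or TAATTA on both strands, and those at -201 to -196 are an E-box, searched as CANNTG. The search covered 300 bases, which include 50 after the start site, and found 1 match of each. A homeobox core was in 12.4% and an E-box in 72.3% of the 32851 promoters of this length, and the matches do not overlap. For Gdf9 no promoter is printed.

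Several libraries were low in markers of the cell that their label names or high in those of the other cell, which bears on every value below. A list of 12 oocyte markers, such as the zona pellucida gene Zp3 and the maternal effect gene Nlrp5, had a median FPKM between 58.6 and 675 in 8 oocyte libraries and between 0.985 and 15.7 in the other 4, which were Young 1, Aged 1 and both Aged + LRP1low libraries. The same list had a median of 583 in the granulosa cell library of Aged + Unsorted and of 2.96 or less in the other 8 granulosa cell libraries. These 5 libraries are called against their label here, by a limit of 30 that was set after the marker values were seen and that does not use Gdf9 or Bmp15. Libraries above the limit are called libraries with oocyte markers. The 4 oocyte libraries below it were low in these markers but did not all lack them. An FPKM of 10 or more was reached by 8 of the 12 in Aged 1, by 2 in Aged + LRP1low 2, and by 0 in Young 1 and Aged + LRP1low 1. A list of 10 granulosa cell markers had a median of 74.9 in the granulosa cell library of Young and of 21.4 in Aged + LRP1high 3, and of at most 1.27 in the other 7, so most libraries labelled granulosa cell have few or none of the defining markers of that cell. Luteal cell markers had a median of 163 in the granulosa cell library Aged + LRP1low 1, of 30.7 in Young and of 15.1 in Aged + LRP1high 1. Genes of the vomeronasal receptors, which the ovary is not known to use, reached an FPKM of 1 in 92.3% and 82.2% of 568 genes in the 2 Aged + LRP1low oocyte libraries, in 58.1% in Aged 1 and in 10.4% in Young 1, against 0.352% to 13.4% in the other 8. Aligned sequence came to 0.278 to 1.35 gigabases in the 4 oocyte libraries against their label and 0.791 to 3.40 in the other 8. A single gene, Gm10800, held 37.5% to 78.1% of the TPM, a unit with the same total in each library, in those 4. In the other 8 the top gene held 2.19% to 17.4%. Among granulosa cell libraries Gm10800 held 6.92% in Young, 23.0% in Aged + Unsorted and 59.0% to 86.6% in the other 7. FPKM is also scaled by the total of the library, and the part of this share in the values below was not tested.

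In oocytes, Gdf9 was among the most abundant transcripts of the libraries that carried oocyte markers. Its FPKM was 2.17, 65.1 and 626 in Young 1, 2 and 3. In Aged 1 and 2 it was 9.04 and 1245. The Aged + Unsorted libraries had 1467 and 1815, and the Aged + LRP1high libraries 1181, 1427 and 483. In Aged + LRP1low the values were 9.66 and 27.2. The 8 libraries with oocyte markers thus ran from 65.1 to 1815 with a median of 1213, and the 4 against their label from 2.17 to 27.2, without overlap. The libraries were split by oocyte markers, which go with both ligands. Such a gap is largely fixed by the split and is only a description, for Gdf9 here and for Bmp15 below. How many of all genes separate the same libraries was not counted. Among all 55335 genes of a library, Gdf9 took a place between 15 and 104 in 7 of the 8, and place 459 in Young 2.

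Bmp15 showed the same division at a lower level. Its FPKM was 0.458, 105 and 563 in Young 1, 2 and 3, and 10.5 and 378 in Aged 1 and 2. The Aged + Unsorted libraries had 487 and 774, and the Aged + LRP1high libraries 722, 501 and 140. In Aged + LRP1low 1 it was 1.19, and in Aged + LRP1low 2 it was listed at 0. The libraries with oocyte markers ran from 105 to 774 with a median of 494, and the others did not exceed 10.5. In Aged + LRP1low 1, only 68 of the 568 vomeronasal receptor genes had a lower FPKM than Bmp15, whereas Gdf9 exceeded 560 of them there and all 568 in Aged + LRP1low 2. The mean read depth over Bmp15 in these libraries was 0.611 and 0, and over Gdf9 2.16 and 6.27.

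**Figure D1:**
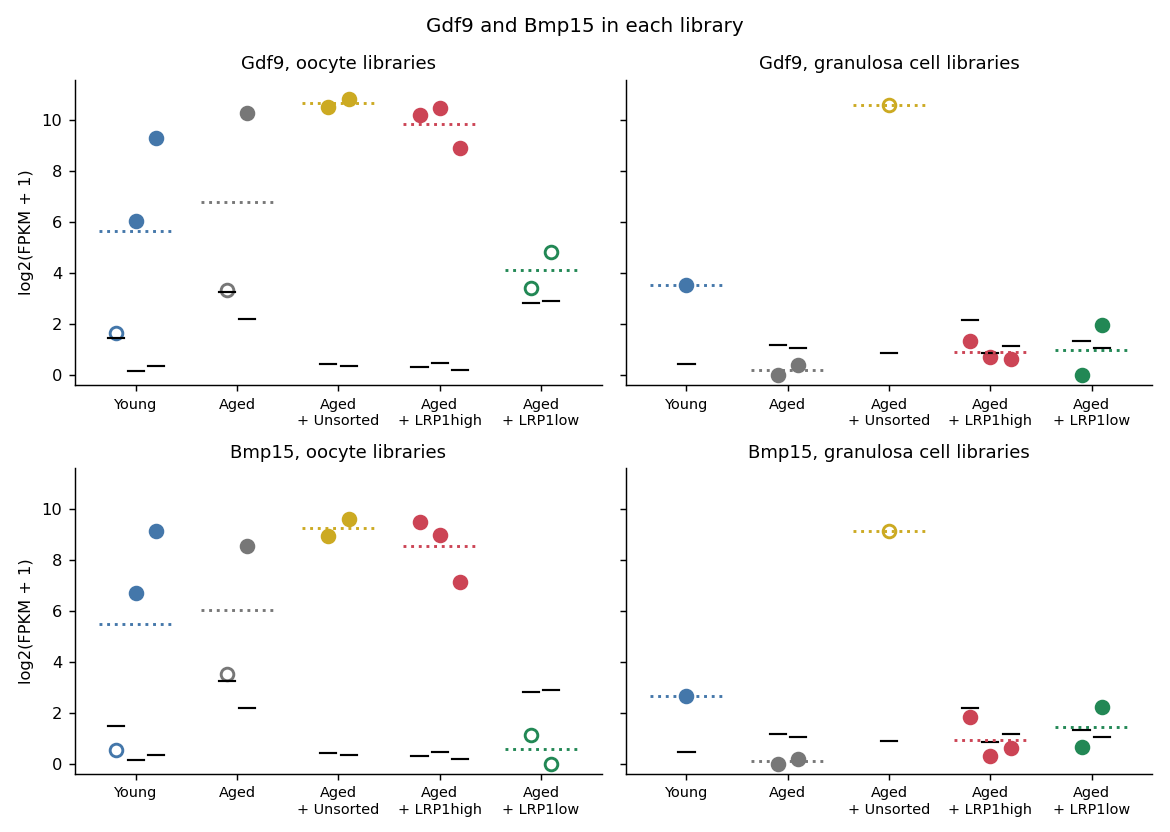
Level of Gdf9 (top) and Bmp15 (bottom) as log2(FPKM + 1) in each oocyte library (left) and granulosa cell library (right), by group. Open points are libraries against their label, dotted lines group means, and short black lines the 95th percentile of 568 vomeronasal receptor genes in the same library; in oocyte libraries the filled points lie above 6 and the open points below 5.

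Ordered by the mean of FPKM, Gdf9 was 1641 ± 246 (SD, n = 2) in Aged + Unsorted, 1031 ± 490 (n = 3) in Aged + LRP1high, 627 ± 874 (n = 2) in Aged, 231 ± 343 (n = 3) in Young and 18.4 ± 12.4 (n = 2) in Aged + LRP1low. Bmp15 was 631 ± 203 in Aged + Unsorted, 454 ± 294 in Aged + LRP1high, 223 ± 299 in Young, 194 ± 260 in Aged and 0.594 ± 0.840 in Aged + LRP1low. The SD exceeded the mean in Young and in Aged for both genes, and in Aged + LRP1low for Bmp15. Young and Aged each hold libraries above and below the limit of oocyte markers, and Aged + LRP1low holds only libraries below it. For Bmp15, Young and Aged changed places on the log2 scale, with means of 5.47 and 6.04. No tested pair of neighbours in this order was called after adjustment. For Bmp15 in Aged and Aged + LRP1low, the libraries did not overlap (10.5 and 378 against 0 and 1.19), and the 95% interval of the difference in limma, -10.6 to -0.35, did not hold 0 before adjustment. Young and Aged + LRP1low were not tested, and the values of Aged + LRP1low lie inside the range of Young for Gdf9.

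The study asked how age and each kind of transplanted cell change the oocyte. Groups were compared on log2(FPKM + 1), which understates changes of low values, with limma and Benjamini-Hochberg adjustment over all 28004 genes tested, and calls required an adjusted p-value under 0.05 together with a change of more than 1.5-fold. Between Aged and Young, the difference of Gdf9 was 1.14 (SE 2.13, adjusted p = 0.796) and that of Bmp15 0.58 (SE 2.13, adjusted p = 0.908), and 0.0964% of all genes were called. The median difference of all genes was 0.94, so relative to it the differences were 0.19 for Gdf9 and -0.37 for Bmp15. Libraries against their label were picked by their oocyte markers, which go with both ligands, so values without them describe the libraries that remain. Without them, Aged is 1 library and Young 2, the lone Aged library is assumed to vary like the other groups, and the differences were 2.61 (SE 1.46, adjusted p = 0.705) and 0.64 (SE 1.41, adjusted p = 0.841), with 7.58% of 12105 genes called. Neither ligand was called in Aged against Young with either set of libraries. Leaving out Young 1 turned both differences, to -0.86 and -1.89, and leaving out Aged 2 turned them to -2.34 and -1.95.

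Against Aged, the Aged + Unsorted oocytes had a difference of 3.87 (SE 2.33, adjusted p = 0.436) for Gdf9 and 3.22 (SE 2.33, adjusted p = 0.449) for Bmp15. Limma called 0 of 28004 genes here (0%), and 476 higher and 1971 lower at an unadjusted p under 0.05. For Aged + LRP1high against Aged the differences were 3.06 (SE 2.13, adjusted p = 0.399) and 2.49 (SE 2.13, adjusted p = 0.481), with 0.771% of genes called. Both comparisons share the 2 Aged libraries, of which Aged 1 had an FPKM of 9.04 and 10.5 for the 2 ligands and Aged 2 had 1245 and 378. Without the libraries against their label, where Aged is again 1 library and the spread comes from the other groups, Aged + Unsorted minus Aged became 0.39 (SE 1.46) and 0.70 (SE 1.41), with 7.34% of genes called. Aged + LRP1high minus Aged became -0.41 (SE 1.38) and -0.030 (SE 1.33), with 7.85% called, and leaving out Aged 1 alone gave the same differences. Neither ligand was called against Aged after transplantation of unsorted or LRP1high cells, and for LRP1high the sign turned without Aged 1.

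Aged + LRP1low oocytes had lower values than Aged by 2.69 for Gdf9 (difference -2.69, SE 2.33, adjusted p = 0.670) and by 5.48 for Bmp15 (difference -5.48, SE 2.33, adjusted p = 0.308), where limma called 3.17% of genes. Between Aged + LRP1high and Aged + LRP1low, Bmp15 was called higher in Aged + LRP1high, with a difference of 7.97 (SE 2.13, 95% interval 3.29 to 12.7, adjusted p = 0.0312). All 3 Aged + LRP1high libraries, at 140 to 722, lay above both Aged + LRP1low libraries, at 0 and 1.19. Gdf9 had a difference of 5.75 (SE 2.13, 95% interval 1.07 to 10.4) and was not called (adjusted p = 0.0612), although 483 to 1427 and 9.66 to 27.2 do not overlap either. Of all genes, 26.0% were called between these groups and 1.21% were called higher in Aged + LRP1high, and the median difference was -1.89. Both Aged + LRP1low libraries are against their label, so the level of LRP1 in the transplanted cells and the amount of oocyte RNA in the library cannot be told apart. In RNA from whole samples, fewer oocytes and less transcript per oocyte also cannot be told apart. The call of Bmp15 was lost when any 1 of the 5 libraries was left out (adjusted p 0.0720 to 0.212), with a pseudocount of 0.1 (0.0572) or with quantile normalization (0.0916).

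Among the oocyte libraries with oocyte markers, only 3 groups keep 2 or more libraries. Aged + LRP1high minus Aged + Unsorted was -0.80 (SE 1.09, 95% interval -3.60 to 1.99) for Gdf9 and -0.73 (SE 1.05, -3.42 to 1.97) for Bmp15, with an adjusted p of 1 by limma for both. Aged + LRP1high minus Young was 2.2 (SE 1.09, -0.59 to 4.99) for Gdf9 and 0.61 (SE 1.05, -2.09 to 3.30) for Bmp15, again with an adjusted p of 1. With all libraries the latter differences were 4.20 (SE 1.90) and 3.07 (SE 1.90). Limma called 0% of genes in either comparison. At an unadjusted p under 0.05 it found 68 higher and 713 lower against Aged + Unsorted and 830 higher and 59 lower against Young with all libraries, and 77 and 431, and 96 and 58, without those against their label. These intervals are wide enough to hold a change of several fold in either direction for Bmp15.

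**Figure D2:**
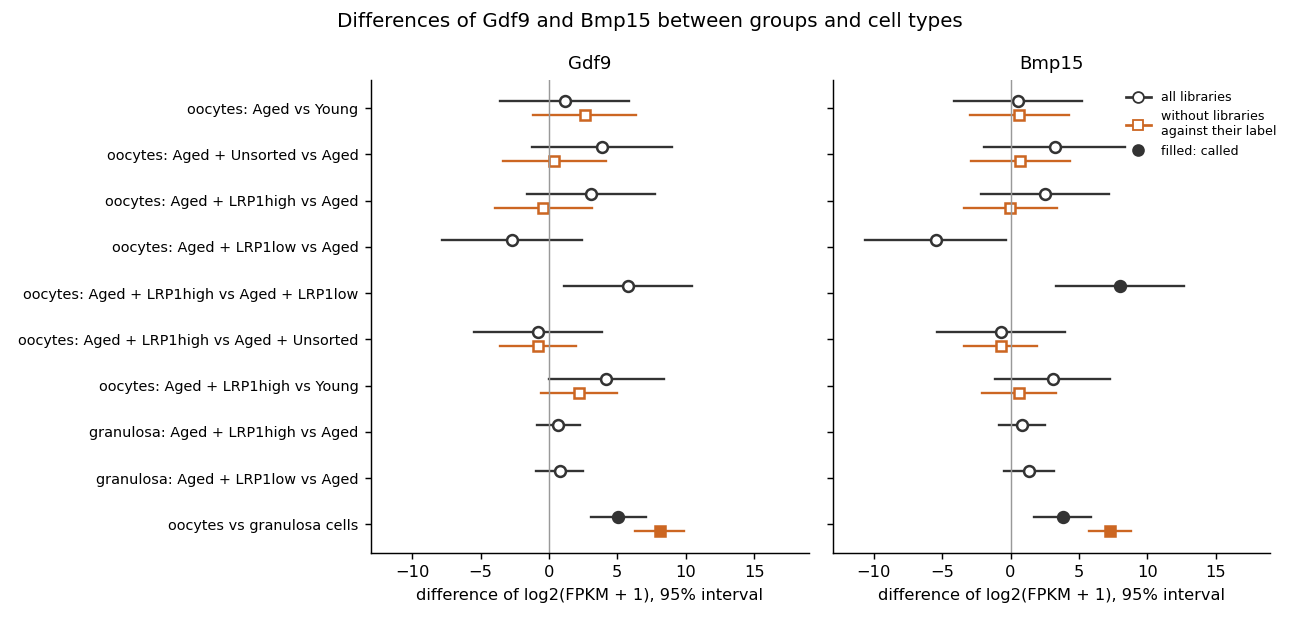
Differences of log2(FPKM + 1) of Gdf9 and Bmp15 (first group minus second) with 95% intervals from limma, from all libraries (circles) and without those against their label (squares); filled symbols passed the call. The squares of Aged + LRP1high against Aged lie at -0.41 and -0.030, where the circles lie at 3.06 and 2.49.

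The ligands were also set beside other oocyte transcripts of the same library. In the 8 libraries with oocyte markers, Gdf9 was 1.11 to 3.60 times the median of the 12 markers, and Bmp15 0.802 to 1.78 times. On the log2 scale, Gdf9 minus the mean of the markers was 0.29 ± 0.38 (SD, n = 3) in Young, 0.43 ± 1.12 (n = 2) in Aged, 1.52 ± 0.53 (n = 2) in Aged + Unsorted, 1.29 ± 0.14 (n = 3) in Aged + LRP1high and 1.25 ± 0.73 (n = 2) in Aged + LRP1low. Bmp15 minus the markers was 0.09 ± 0.58, -0.33 ± 0.23, 0.11 ± 0.27, -0.04 ± 0.51 and -2.30 ± 1.06 in the same order. Exact permutation tests of Aged against Young and of each transplanted group against Aged gave two-sided p-values from 0.333 to 1 over 8 tests (adjusted p 0.762 to 1). With groups of 2 and 3 such a test cannot go below 0.2, and with 2 and 2 not below 0.333, so these designs could not reach 0.05. Aged + LRP1low was the only group in which Bmp15 stood more than 1 below the markers, and both its libraries are against their label.

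**Figure D3:**
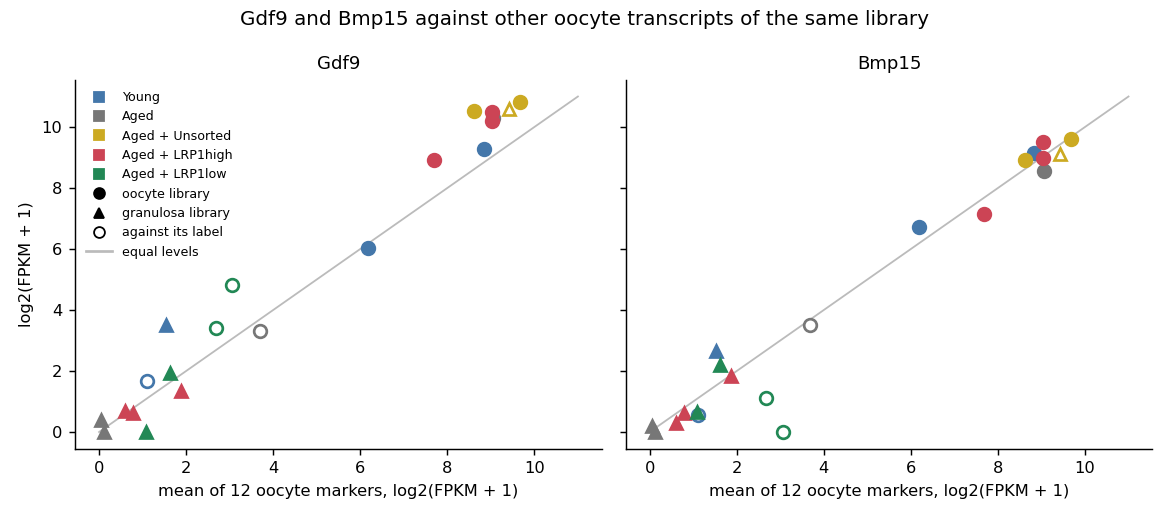
Level of Gdf9 (left) and Bmp15 (right) against the mean of 12 oocyte markers in the same library, both as log2(FPKM + 1), for 21 libraries. Colours are groups, circles oocyte and triangles granulosa cell libraries, open symbols libraries against their label; the open triangle among the oocyte libraries is Aged + Unsorted.

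The balance between the 2 ligands varied from library to library. In Young 2, Bmp15 was 1.61 times Gdf9, and in Young 3 it was 0.900 times. In Aged 2 it was 0.304 times, in Aged + Unsorted 1 and 2 it was 0.332 and 0.427 times, and in Aged + LRP1high 1, 2 and 3 it was 0.611, 0.351 and 0.290 times. Both Young libraries with oocyte markers thus lay above all 6 such libraries of aged mice, a pattern that was seen in the values and not tested. The pattern does not hold over all libraries. Among those against their label, Bmp15 was 0.211 times Gdf9 in Young 1 and 1.16 times in Aged 1, both at low levels. On the log2 scale, Bmp15 minus Gdf9 was 0.68 and -0.15 in Young 2 and 3 and -1.78 to -0.71 in the 6 libraries of aged mice with oocyte markers. Computed from coverage in place of FPKM, it was 0.85 and 0.03 against -1.60 to -0.37. Young 2 had only 3135 genes at an FPKM of 1 or more, the fewest of the oocyte libraries, and the part of this in its ratio was not tested. Over all libraries of the groups, the mean was -0.20 ± 0.90 (SD, n = 3) in Young and -0.76 ± 1.35 (n = 2) in Aged, and an exact permutation test gave p = 0.6 (two-sided, adjusted p = 0.8). The transplanted groups had means of -1.41 ± 0.26, -1.33 ± 0.56 and -3.55 ± 1.79 for Unsorted, LRP1high and LRP1low, with exact permutation p-values against Aged of 1, 0.6 and 0.333.

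**Figure D4:**
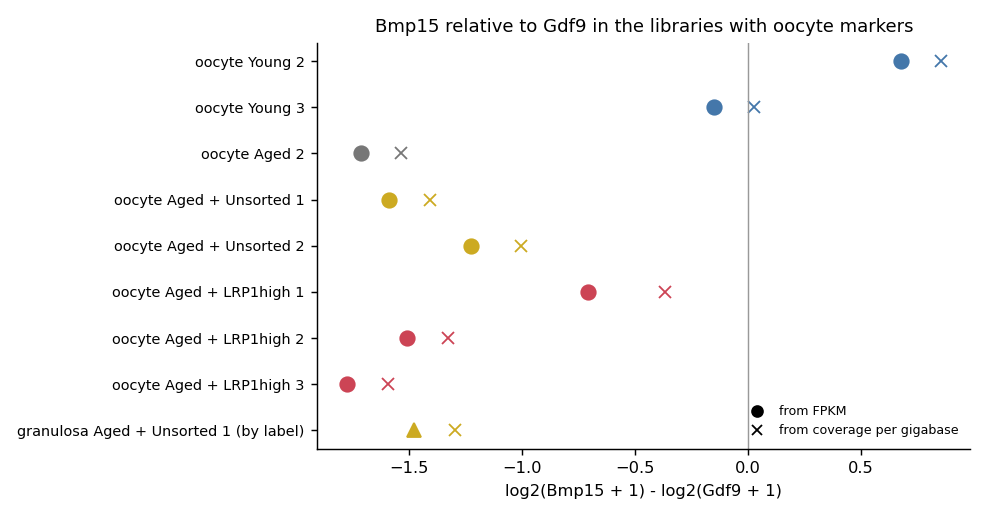
Bmp15 minus Gdf9 on the log2 scale in the 9 libraries with oocyte markers, from FPKM (circles, with a triangle for the library labelled granulosa cell) and from coverage per gigabase (crosses). Young 2 and Young 3 are at 0.68 and -0.15 from FPKM, and all the others are at -0.71 or below.

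In granulosa cell libraries both ligands were low, except in the library labelled Aged + Unsorted. There, Gdf9 had an FPKM of 1555 and Bmp15 of 557, inside the range of the oocyte libraries. Across 21767 genes this library had a Spearman correlation of 0.931 with the oocyte library Aged + Unsorted 2, the highest of its 20 correlations, and genes are not independent replicates. In the other 8 libraries, Gdf9 ranged from 0 to 10.5 and Bmp15 from 0 to 5.32. The granulosa cell library of Young had the highest values, 10.5 and 5.32, each above all 568 vomeronasal receptor genes. The 12 oocyte markers had a median of 1.90 there, from 0 for Zp1 to 13.1 for Dppa3. Gdf9 lay above 11 of them and Bmp15 above 10, and the part of oocyte RNA in these values was not tested. In Aged the FPKM of Gdf9 was listed at 0 and 0.304, in Aged + LRP1high 1.53, 0.611 and 0.553, and in Aged + LRP1low 0 and 2.84. Bmp15 was listed at 0 and 0.137 in Aged, 2.56, 0.232 and 0.542 in Aged + LRP1high, and 0.563 and 3.62 in Aged + LRP1low. Except in Aged + LRP1low 2, all of these lie below the 95th percentile of the vomeronasal receptor genes of their library, which was 0.807 to 3.51 in these 7 libraries.

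Differences between granulosa cell groups were tested only where both groups hold 2 or more libraries. The filter of a mean FPKM of 1 was taken over all groups. Young and Aged + Unsorted, which are not compared, had 10.5 and 1555 for Gdf9 and 5.32 and 557 for Bmp15. With only the groups compared, both ligands fell below the filter for LRP1high, and Gdf9 did for LRP1low. Those tests thus depend on groups that are not compared. Aged + LRP1high minus Aged was 0.70 (SE 0.65) for Gdf9 and 0.83 (SE 0.68) for Bmp15, with adjusted p-values of 0.525 and 0.494 by limma over 13002 genes. Aged + LRP1low minus Aged was 0.78 (SE 0.71, adjusted p = 0.959) and 1.33 (SE 0.74, adjusted p = 0.904). In both comparisons 0% of genes were called, and at an unadjusted p under 0.05 limma found 1039 higher and 67 lower for LRP1high and 397 higher and 96 lower for LRP1low. In Aged, Aged + LRP1low and 2 of the 3 Aged + LRP1high libraries the granulosa cell markers had a median of at most 1.26, and the part of this in the differences was not tested. Whether transplantation changed the ligands differently in oocytes and in granulosa cells was tested in 1 model over all libraries. The difference of the changes was 2.37 (SE 2.51) and 1.67 (SE 2.51) for LRP1high and -3.47 (SE 2.75) and -6.81 (SE 2.75) for LRP1low, with limma adjusted p-values from 0.563 to 0.939.

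Between the cell types, both ligands were higher in oocytes. In a limma model of all 21 libraries with the group as a term, oocyte minus granulosa cell was 5.06 (SE 0.99, adjusted p = 0.00514) for Gdf9 and 3.81 (SE 1.01, adjusted p = 0.0218) for Bmp15. Of 21767 genes, 6.68% were called, and 6.50% were called higher in oocytes. Without the libraries against their label, the differences were 8.10 (SE 0.85) and 7.27 (SE 0.72), where 15.2% of 12705 genes were called and 14.1% were called higher in oocytes. Dropping oocyte libraries low in oocyte markers and a granulosa cell library high in them largely fixes this direction, so these values are a description and no support for the difference. With all libraries, the call of Gdf9 was lost without a filter on low values (adjusted p = 0.0619) and with quantile normalization (0.0563), and that of Bmp15 in these settings and in 2 others. Leaving out oocyte Aged 2 or Aged + LRP1high 1, or granulosa cell Aged 1, Aged 2 or Aged + LRP1high 2, also ended the call of Bmp15, with an adjusted p of 0.0501 to 0.0549.

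The rest of the pathway was followed by 7 lists with 67 genes in all, ordered by role. Among 12 ligands, counting Gdf9 and Bmp15, Gdf9 had the highest FPKM in 7 of the 8 oocyte libraries with oocyte markers and Bmp15 the second highest, and in Young 2 they changed places. Together they held 54.0% of the FPKM of the 12 in Young 2 and 91.2% to 99.9% in the other 7. Fgf8, a fibroblast growth factor that the oocyte sends to cumulus cells, followed with a median of 63.6 over the 8 libraries, and Bmp6, a TGF-β family ligand of the oocyte, with 29.5. Both were higher in oocytes than in granulosa cell libraries, by 3.04 (SE 0.80, adjusted p = 0.0213) and 2.47 (SE 0.63, adjusted p = 0.0175) in limma. They were uneven across libraries, since Fgf8 was at 0 in Young 2 and at 0.703 in Aged + LRP1high 3, where Gdf9 was at 65.1 and 483. Between the cell types and with all libraries, 5 of 58 pathway genes tested were called, all higher in oocytes. That is 8.62%, near the 6.68% called among all genes. The 5 are Fgf8, Bmp6, Furin, Nobox and Lhx8. Among the ligands other than Gdf9 and Bmp15, the inhibin and activin subunits Inha, Inhba and Inhbb had the highest mean levels over the 9 granulosa cell libraries, at 703, 450 and 528 in Young and 263, 83.9 and 141 in Aged + LRP1high 3. Without the libraries against their label, oocyte minus granulosa cell was -3.17 (SE 1.01) for Inhbb, given as a description.

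Of the 3 convertases that can cleave the propeptides, Furin was the most abundant in oocytes, with a median FPKM of 21.1 over the 8 libraries and a range of 0.234 in Young 2 to 69.5 in Aged + LRP1high 3. It was higher in oocytes than in granulosa cell libraries by 2.53 (SE 0.57, adjusted p = 0.00879). Pcsk5 and Pcsk6 were at or below 1.45 in these 8 libraries. Both were called lower in Aged + LRP1high than in Aged + LRP1low, by a difference of -2.80 (SE 0.87, adjusted p = 0.0425) and -2.87 (SE 0.81, adjusted p = 0.0342), at 4.99 to 10.4 and 6.28 to 6.48 in Aged + LRP1low.

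Receptors were measured on both sides of the signal. Bmpr2, the type II receptor of both ligands, had an FPKM of 119 in the granulosa cell library of Young, 18.7 in Aged + LRP1high 3 and 17.9 in Aged + LRP1low 1, and at most 7.58 in the other 6. Tgfbr1, the type I receptor used by GDF9, was at 30.9, 10.3 and 36.3 in the same 3 libraries. Bmpr1b, the type I receptor used by BMP15, was at 25.3 in Young and at 1.53 and 0.335 in the 2 others. The highest level of a receptor outside Young was that of Bmpr1a, at 47.4 in Aged + LRP1high 1. Oocytes themselves carried Bmpr1b (median 11.1 over the 8 libraries), Acvr2b (9.48), a type II activin receptor, and Bmpr2 (7.94). Of 11 receptors, 9 were tested in oocytes and 10 in granulosa cell libraries and between the cell types, and a receptor was called in 1 comparison with all libraries. Amhr2, the receptor of anti-Müllerian hormone, was lower in Aged + LRP1high than in Aged + LRP1low oocytes (difference -2.61, SE 0.80, adjusted p = 0.0410).

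Among the 8 SMADs, none was called in any comparison. Smad4, the shared partner of the receptor-regulated SMADs, had a median of 17.8 in the 8 oocyte libraries and 60.1 in the granulosa cell library of Young. Smad3 and Smad2, which act downstream of GDF9, had medians of 16.7 and 5.52 in oocytes. In Aged + LRP1high 3 all 3 were at or below 0.569, while Gdf9 was at 483 there. The binding proteins and antagonists had medians of at most 0.636 in the 8 oocyte libraries. Fst, the activin-binding protein follistatin, was at 349 in the granulosa cell library of Young, 247 in Aged + LRP1high 3 and 102 in Aged + LRP1low 1. Bambi, a pseudoreceptor that dampens the pathway, was called lower in Aged + LRP1high than in Aged + LRP1low oocytes (difference -2.34, SE 0.67, adjusted p = 0.0348).

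Of 25 genes known as targets of the ligands in cumulus cells, 22 passed the filter in oocytes and 18 in granulosa cell libraries. None was called between groups of granulosa cells, and the median of the list was 1.27 for Aged + LRP1high and 0.72 for Aged + LRP1low against Aged, beside 0.89 and 0.31 over all genes. The expansion genes Has2, Ptgs2 and Tnfaip6 did not exceed an FPKM of 1.90 in any granulosa cell library. Ptx3, of the same list, was at 4.39 in the granulosa cell library of Young and at most 1.06 in the others. In oocytes, Tnfaip6 and Amh were lower in Aged + LRP1high than in Aged + LRP1low by limma (differences -2.70 and -3.03, SE 0.60 and 0.92, adjusted p = 0.0216 and 0.0395). Between the cell types and without the libraries against their label, Hmgcs1 and Fdft1, enzymes of cholesterol synthesis, and Pkm, a glycolytic enzyme, had differences of 3.82 (SE 1.01), 4.14 (SE 1.00) and 4.26 (SE 0.98), again as a description, and with all libraries none of the 22 targets tested was called. These enzymes serve most cells and do not mark cumulus cells.

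All 6 pathway genes called between Aged + LRP1high and Aged + LRP1low oocytes were lower in Aged + LRP1high, which is 10.2% of 59 tested, beside 26.0% of all genes called. They are Amh, Pcsk5, Pcsk6, Amhr2, Bambi and Tnfaip6, each at 3.50 to 10.4 in the 2 Aged + LRP1low libraries, where the 95th percentile of the vomeronasal receptor genes was 6.07 and 6.42. Bmp15 was the only gene of the pathway and its 2 ligands called in the other direction. The part of the level of vomeronasal receptor genes in these calls was not tested. In the 6 other comparisons of oocytes and in both of granulosa cells, no pathway gene was called with all libraries.

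Of the 7 transcription factors of the oocyte, Nobox and Lhx8, a LIM homeobox factor, did not overlap between oocyte libraries with oocyte markers and the others. The libraries were split by oocyte markers, and the share of all genes that separate them was not counted, so this is a description. Nobox had a median FPKM of 78.5 and a range of 26.3 to 176 in the 8 oocyte libraries with oocyte markers, and 0 to 6.21 in the 4 others. Lhx8 had a median of 75.1 and a range of 9.87 to 110, against 2.43 to 6.80. Both were higher in oocytes than in granulosa cell libraries (differences 3.45 and 3.33, SE 0.73 and 0.62, limma adjusted p = 0.00685 and 0.00466). Figla, by contrast, ranged from 0 in Aged 2 to 31.2 in Aged + Unsorted 2 among the 8, and was at 10.1 in Aged + LRP1low 1 and 14.0 in Aged 1, both against their label. Nr6a1, an orphan nuclear receptor of germ cells, ranged from 0.368 to 29.9 in the 8. No transcription factor was called between groups of oocytes. Whether these factors bind the Bmp15 promoter printed above was not measured.

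**Figure D5:**
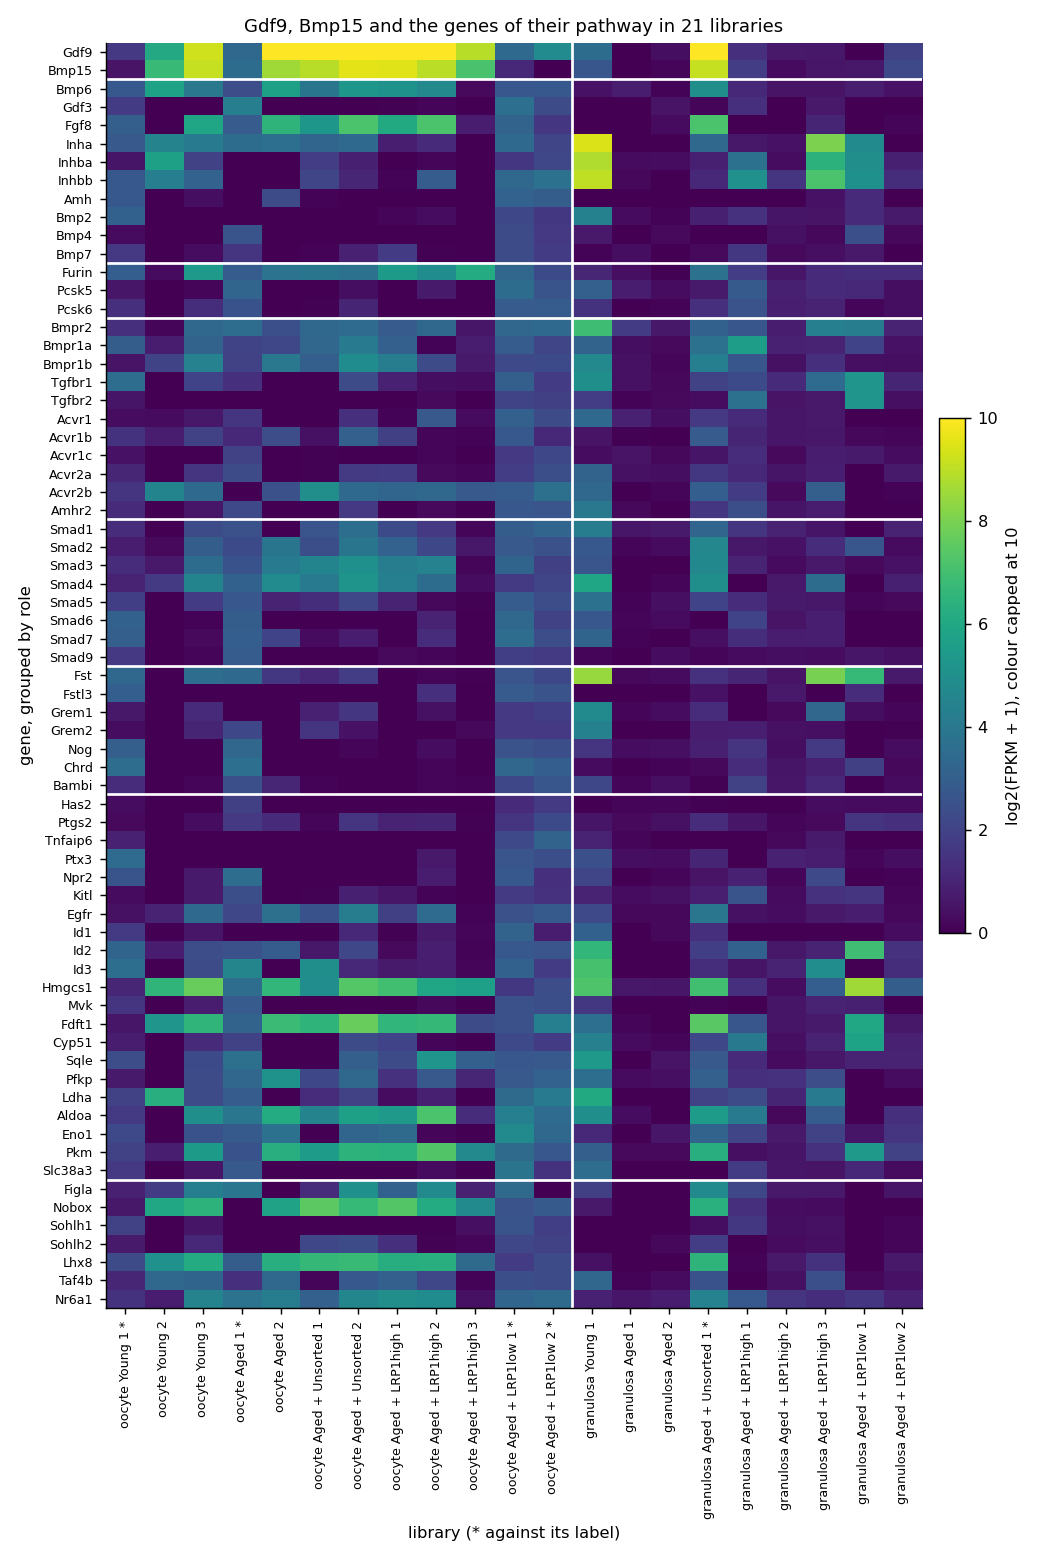
Levels of Gdf9, Bmp15 and 67 genes of their pathway as log2(FPKM + 1), by colour, in 21 libraries. White lines separate the roles from top to bottom (ligands of interest, other ligands, convertases, receptors, SMADs, antagonists, cumulus targets, transcription factors). A gene in 2 lists is shown once, and stars mark libraries against their label. As a description, the upper 2 rows, Nobox and Lhx8 are brighter in the libraries with oocyte markers than in the rest.

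The genes whose levels went most closely with each ligand were other abundant oocyte transcripts. Over the 12 oocyte libraries and the 4066 genes whose FPKM averaged 10 or more, the highest Pearson correlations of log2(FPKM + 1) with Gdf9 were those of Sap18b (0.988), Zfp57 (0.988), Bcl2l10 (0.987), Fbxw16 (0.985) and Tent5c (0.985). For Bmp15 they were Fbxw28 (0.995), Gm13084 (0.994), Fbxw14 (0.992), Zbed3 (0.992) and Npm1 (0.991). Zfp57 is a zinc finger protein that maintains imprints, Bcl2l10 an oocyte member of the BCL-2 family and Npm1 a nucleolar protein. Bmp15 took place 250 in likeness to Gdf9, and Gdf9 place 192 in likeness to Bmp15, at a correlation of 0.928. The libraries fall into those high and those low in oocyte markers, a division that all these genes share. Within the 8 libraries with oocyte markers, the correlation of Gdf9 with Bmp15 was 0.844, that of Gdf9 with Bcl2l10 0.992 and that of Bmp15 with Gm13084 0.993, as descriptions with no test. Sap18b, Gm13084 and the Fbxw genes have near-identical relatives, so their values are uncertain where reads could be split between copies. Of the neighbours on the chromosome, Uqcrq reached 628 in Aged + LRP1high 2 and was also high in the granulosa cell library of Young, at 252, where Gdf9 was at 10.5. AU022751, which lies 230688 bases from Bmp15, was at 8.81 to 692 in the 8 oocyte libraries with oocyte markers and at 6.19 or less in the 4 others, again as a description.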

How the data were processed

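RNA of 12 oocyte and 9 granulosa cell libraries was sequenced. Per the submitters' processing notes, reads were aligned with HISAT2 2.2.1 and quantified with StringTie 1.3.3b. The study's methods name Smart-seq2 and the labels a stranded kit. The labels name mm9, but 54577 of 55335 gene identifiers match GRCm38 coordinates. The authors deposited FPKM, TPM and coverage per gene. FPKM was the main unit, deposited TPM an alternative, and deposited coverage (mean read depth) gave aligned gigabases over 21693 single-exon genes. Without counts, counting error cannot be given.

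Identifiers that occur more than once in a library were summed. Groups came from the labels. Limma 3.58.1 (R 4.3.3) was fitted to log2(FPKM + 1) for genes whose FPKM averaged 1 or more, with 1 model per cell type that held every group, at the study's criteria. For the cell types, group was an additive term. Ratios were tested by exact permutation (SciPy 1.17.1). Fits were tested on simulated data.

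Named genes were Gdf9, Bmp15, called members of each pathway list with its 3 most abundant, the 5 genes most like each ligand, adjoining genes and markers. Expansion genes, Ptx3 and Figla were named after their values were seen. Members and lists were chosen with earlier results of these data known. The alternatives were other pseudocounts, filters, units, scalings, fits and left-out libraries.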

Additional observations from a re-analysis of the deposited data

Results flagged for a closer look

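The library labelled granulosa cell of Aged + Unsorted, which enters no comparison between granulosa cell groups because it is the only one of its group, had an FPKM of 1555 for Gdf9 and 557 for Bmp15. In the 2 Aged granulosa cell libraries Gdf9 was listed at 0 and 0.304 and Bmp15 at 0 and 0.137. This was flagged as a signal outside the groups compared. All 12 oocyte markers had an FPKM of at least 10 in it, and none of the 10 granulosa cell markers did. No group holds 4 or more libraries, so single libraries were not tested as far from the others. No test of a difference between the changes in oocytes and in granulosa cells passed adjustment.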

How the results depend on the processing

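Of 396 alternative values for 32 results, 355 kept the direction and the side of the threshold, 21 changed direction, 19 lost a call and 1 gained one, and TPM in place of FPKM and the trended fit changed none. Alternatives without libraries against their label, or from coverage, were chosen after seeing the data.

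Bmp15 between Aged + LRP1high and Aged + LRP1low lost its call with a pseudocount of 0.1 (10.01, adjusted p = 0.0572), quantile normalization (7.37) and the replicate block (7.40, adjusted p = 0.0843), and with any library left out (7.41 to 8.67). Gdf9 gained a call when only these groups were fitted (5.75, limma adjusted p = 0.00273), and with all groups fitted it was 5.05 to 6.45 with a library left out. Oocytes against granulosa cells lost the call without a filter (Gdf9 5.06, Bmp15 3.81), with quantile normalization (4.12 and 2.44), and for Bmp15 also with equal group weights (3.13) and coverage per gigabase (3.81), which for this single-transcript gene equals FPKM. With a library left out they were 4.44 to 5.84 and 3.28 to 4.38. The cause of these losses was not tested.

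Directions turned under quantile normalization for Bmp15, Aged against Young (-0.11), and for Gdf9 in granulosa cells, Aged + LRP1high against Aged (-0.030). Without libraries against their label, they turned for Aged + LRP1high against Aged (Gdf9 -0.41, Bmp15 -0.030) and for the ratio of Bmp15 to Gdf9 against Aged (0.31 for Aged + Unsorted, 0.38 for Aged + LRP1high). Gdf9 relative to the markers, Aged against Young, turned with a pseudocount of 0.1 (-0.019) and the median of the markers (-0.12). With a library left out, the ranges that crossed 0 were -2.34 to 4.62 and -1.95 to 3.10 for Gdf9 and Bmp15, Aged against Young, -0.41 to 6.54 and -0.030 to 5.02 for Aged + LRP1high against Aged, and -6.17 to 0.79 for Gdf9, Aged + LRP1low against Aged. For Gdf9 in granulosa cells, Aged + LRP1low against Aged, it was -0.19 to 1.75. The ratio ran from -1.52 to 0.39 (Aged against Young), -1.60 to 0.31 (Aged + Unsorted) and -1.53 to 0.38 (Aged + LRP1high), and Gdf9 relative to the markers from -0.65 to 0.93.

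Whether libraries with the same number share more than that number could not be told from correlations of their deviations from group means. Same-numbered pairs ran from -0.44 to 0.44 in oocytes and -0.08 to 0.26 in granulosa cells. Pairs with different numbers ran from -0.52 to 0.52 and from -0.26 to 0.26. Deviations cancel within a group, so in the smallest groups correlated they are exact opposites and the values mirror each other. The block changed no other call. Where only the groups compared were fitted, Gdf9 or Bmp15 fell below the filter in granulosa cells and some values could not be had. Groups held 1 to 3 libraries, depth ran from 0.278 to 3.40 gigabases, and Gm10800 held up to 86.6% of the TPM of a library. Which of these limits the comparisons more was not tested.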
